A study of Mus musculus with 12 samples.

Results

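The collagen chain genes are the genes whose products trimerise into collagen molecules, the main structural proteins of the extracellular matrix. They were taken as every annotated gene symbol made of Col, a type number, the letter a and a chain number, with 1 probe set per symbol. The rule found 42 chains of 25 collagen types among the 19505 genes measured, and each of the 42 had a single probe set. Total RNA came from cultured explants of lung metastases seeded by NMuMG-ErbB2 cells injected into the tail vein of mice. NMuMG cells are epithelial cells of mouse mammary gland, and ErbB2 is the oncogene they carry. In 1 line the injected cells overexpressed PGC-1alpha, a transcriptional coactivator known for raising mitochondrial biogenesis, and the other was the control line, named VC in the labels. Explants of both lines received 100 uM phenformin, a biguanide that inhibits respiratory complex I, or dh20 (water) over 4 days. This gave 4 groups of 3 arrays: PGC-1alpha explants in water, PGC-1alpha explants in phenformin, control-line explants in water and control-line explants in phenformin. All groups share the ErbB2 background and the passage through mouse lung. The promoter driving PGC-1alpha, the number of clones, the host mice and whether arrays came from separate animals or cultures are not stated in any source used here. The p-values therefore measure the spread between these arrays, which may be technical, and the effect of PGC-1alpha cannot be told apart from any other difference between the explants of both lines.

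Collagens are grouped by the structures they build. Fibrillar collagens such as types I, III and V form the cross-striated fibres of connective tissue, and fibril-associated collagens decorate their surface. Type IV chains form the sheet-like network of basement membranes, on which epithelial cells rest, and types XV and XVIII are basement membrane proteoglycans. Type VI forms beaded microfilaments next to basement membranes from an alpha1 chain, an alpha2 chain and a partner of the alpha3 kind. In mammary tumours fibrillar collagens are made mainly by stromal fibroblasts, while epithelial tumour cells can make basement membrane chains themselves.

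Expression is given as the deposited array value, read as log2. A chain was taken as above the detection limit in an array when its value exceeded the 95th percentile of that array's 5222 negative control probe sets, which lay between 7.72 and 7.99. Between 34.6% and 39.1% of all genes exceeded it per array. Ppargc1a, the gene of PGC-1alpha, followed the labels. It stood at 8.14 ± 0.11 in water and 8.25 ± 0.10 in phenformin (SD, n = 3) in PGC-1alpha explants. In the control line it stood at 7.11 ± 0.09 and 7.12 ± 0.16 (SD, n = 3), with 0 control-line arrays above the limit. These values do not tell the transgene apart from the cells' own transcript. Of 10 epithelial markers, Cdh1, Krt8, Krt18 and Krt19 exceeded the limit in all 12 arrays, and Epcam, Krt7, Cldn3, Cldn4, Cldn7 and Esrp1 did so in 0. Krt19 was higher in phenformin than in water in the control line (0.70 ± 0.15, limma adjusted p = 0.0405). Krt7, with all arrays under the limit, was lower in PGC-1alpha explants in water (-0.66 ± 0.14, limma adjusted p = 0.0202) and in phenformin (-0.60 ± 0.14, adjusted p = 0.0226). Of 13 measured fibroblast and mural markers, 0 exceeded it in any array, and their mean value per array ran from 4.98 to 5.34. Of 10 endothelial, 8 leukocyte and 9 lung epithelial markers, 1, 1 and 0 exceeded it in all 12 arrays. The leukocyte marker Cd14 was lower in PGC-1alpha explants in phenformin (-0.41 ± 0.10, limma adjusted p = 0.0338). In bulk RNA, fewer cells of a type and less RNA per cell cannot be told apart.

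Of the 42 chains, 6 were above the limit in all 12 arrays. They were Col4a1 and Col4a2 of the type IV network, Col6a1 and Col6a2 of the type VI filament, Col8a2 of the type VIII network and the multiplexin Col18a1. A further 5 chains exceeded it in all 3 arrays of at least 1 group: Col11a2, Col13a1, Col16a1, Col22a1 and Col28a1. Another 6 did so in 1 or 2 arrays only, namely Col1a1, Col9a3, Col15a1, Col20a1, Col25a1 and Col27a1. The other 25 chains exceeded it in no array. Of the 19505 genes measured, 11313 exceeded the limit in no array and 6122 in all 12 arrays. Per array, 7 to 16 of the 42 chains were above the limit, or 16.7% to 38.1%.

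By class, the main fibrillar chains were at or under the limit. Of 11 fibrillar chains, 8 were above it in no array, among them Col1a2 and Col3a1, and Col1a1 exceeded it in 1 control-line array in water at 7.92. Of the 6 type IV chains, Col4a3, Col4a4, Col4a5 and Col4a6, which in mammals make the networks of kidney glomerulus, lung and smooth muscle, were above it in no array. Of the 6 type VI chains, Col6a3, Col6a4, Col6a5 and Col6a6, the alpha3-like chains, were likewise above it in no array. No array therefore gave an alpha3-like partner above the limit for the Col6a1 and Col6a2 chains that were. A value under the limit is a bound and does not show that a chain is not expressed. Col7a1 and Col12a1 were not analysed here.

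**Figure D1:**
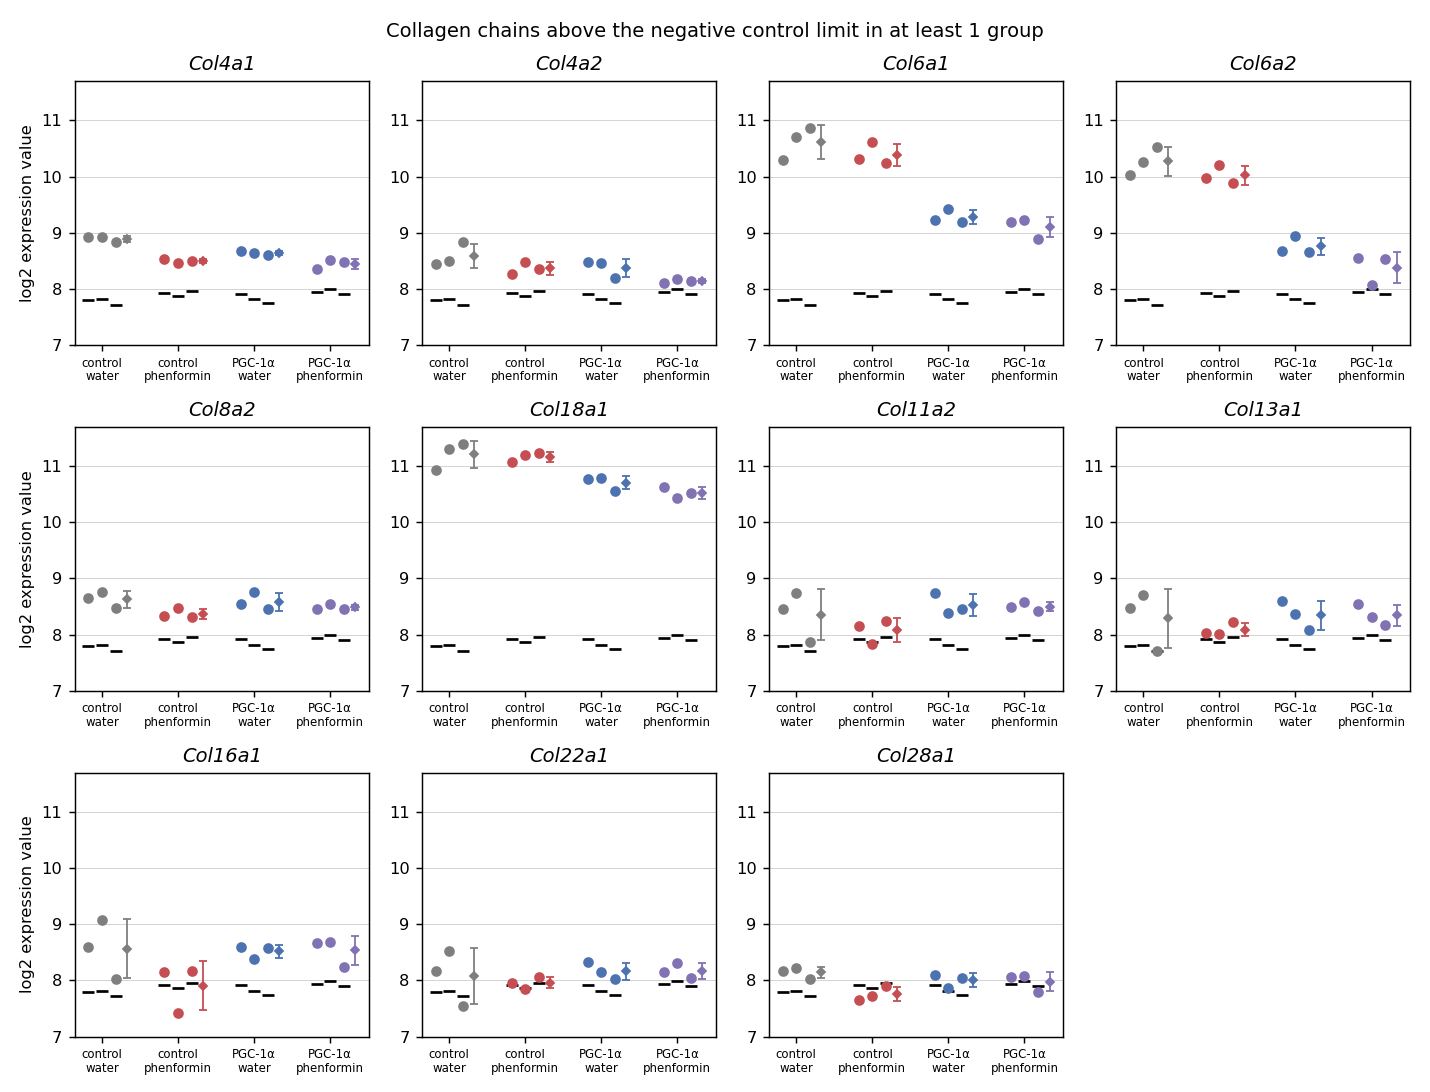
Log2 expression value (vertical axis) of the 11 chains above the detection limit in all 3 arrays of at least 1 group, with circles for single arrays, diamonds and bars for the mean ± SD of 3 arrays, and black dashes for each array's own limit. Col6a1 and Col6a2 stand lower in all 6 PGC-1alpha arrays than in all 6 control-line arrays, Col18a1 does so by less, and in the other panels the 6 arrays of each line overlap.

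The first question was which chains separate explants of the PGC-1alpha line from those of the control line. In water, 2 of the 42 chains passed the test, Col6a1 and Col6a2, both lower in PGC-1alpha explants, and 0 were higher. Over all genes 2.0% passed in water, 1.37% lower and 0.636% higher (limma, Benjamini-Hochberg adjusted p under 0.05 over all 19505 genes). In phenformin 6 chains passed: Col6a1, Col6a2, Col18a1 and Col5a1 were lower, and Col6a3 and Col9a1 were higher. Over all genes 4.01% passed in phenformin, 3.16% lower and 0.856% higher. The median difference over the 42 chains was -0.05 in water and 0.11 in phenformin, against 0.00 and -0.01 over all genes. The sign of these medians rests on single arrays: in water it was -0.17 without control-line water replicate 3, 0.04 without replicate 2 and 0.06 with the negative control median as a covariate, and in phenformin it was 0.00 with 21 of 42 negative without control-line phenformin replicate 2. Of all genes, those above the limit in no array, as 25 of the chains were, had medians of -0.01 in water and 0.04 in phenformin. The 2 line comparisons share no arrays.

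Col6a1, the alpha1 chain of type VI collagen, was 2.52-fold lower in PGC-1alpha explants in water and 2.44-fold lower in phenformin. In control-line explants its arrays stood at 10.29, 10.71 and 10.86 in water and at 10.32, 10.61 and 10.23 in phenformin. In PGC-1alpha explants they stood at 9.23, 9.42 and 9.19 in water and at 9.19, 9.22 and 8.89 in phenformin. Every PGC-1alpha array was lower than every control-line array, and within a line the water and phenformin arrays overlapped. The difference between lines was -1.34 ± 0.16 (SE) in water (limma adjusted p = 0.000308) and -1.29 ± 0.16 in phenformin (adjusted p = 0.000291).

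Col6a2, the alpha2 chain, was 2.85-fold lower in water and 3.13-fold lower in phenformin. Its control-line arrays stood at 10.02, 10.27 and 10.52 in water and at 9.98, 10.21 and 9.88 in phenformin. Its PGC-1alpha arrays stood at 8.68, 8.93 and 8.66 in water and at 8.55, 8.06 and 8.53 in phenformin. The lines again did not overlap under either treatment, and PGC-1alpha phenformin replicate 2 was the lowest array, just over its own limit of 7.99. The differences were -1.51 ± 0.16 in water (limma adjusted p = 0.000146) and -1.64 ± 0.16 in phenformin (adjusted p = 4.64e-05). Both chains passed in both treatments under all 13 alternative settings run, with differences from -1.50 to -1.18 for Col6a1 and from -1.73 to -1.38 for Col6a2. One of these settings, the mean over probe sets, changes no chain's values, because every chain has a single probe set. Of the 13 fibroblast and mural markers, which come from cells that also make type VI collagen, 0 exceeded the limit and 0 passed between lines in either treatment. Over all genes 2.0% passed in water and 4.01% in phenformin. In water 2 of the 13 markers had an unadjusted p under 0.05 (limma), both lower in PGC-1alpha explants, beside 2304 of 19505 genes. In phenformin 0 of the markers did, beside 3145 of 19505 genes. The mean of these markers per array in water ran from 5.01 to 5.20 in PGC-1alpha explants and from 5.04 to 5.34 in the control line. In phenformin it ran from 5.03 to 5.25 and from 4.98 to 5.18. Markers under the limit give bounds only, and the part of such cells in the type VI difference was not tested.

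Because these genes differ together and lie side by side, their promoters are shown, from 250 bases before to 50 bases after the RefSeq start on GRCm38.p6. Col6a1 has 1 listed window, at chr10:76725995-76726294, and Col6a2 has 2, at chr10:76623355-76623654 (a) and chr10:76623581-76623880 (b), all on the minus strand and written 5′ to 3′ along the gene. Capitals mark the GC box GGGCGG or its other strand CCGCCC, a letter match that shows no binding.
Col6a1: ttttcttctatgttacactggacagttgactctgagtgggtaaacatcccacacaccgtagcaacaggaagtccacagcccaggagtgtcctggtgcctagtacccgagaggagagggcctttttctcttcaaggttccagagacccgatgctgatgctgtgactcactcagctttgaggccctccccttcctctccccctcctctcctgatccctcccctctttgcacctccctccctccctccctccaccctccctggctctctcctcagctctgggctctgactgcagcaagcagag
Col6a2 a: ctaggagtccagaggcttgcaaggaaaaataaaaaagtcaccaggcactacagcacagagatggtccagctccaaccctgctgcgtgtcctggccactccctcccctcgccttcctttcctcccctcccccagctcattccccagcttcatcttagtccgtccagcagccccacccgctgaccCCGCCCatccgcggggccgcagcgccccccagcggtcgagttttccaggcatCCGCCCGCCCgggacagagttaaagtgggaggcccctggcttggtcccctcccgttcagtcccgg
Col6a2 b: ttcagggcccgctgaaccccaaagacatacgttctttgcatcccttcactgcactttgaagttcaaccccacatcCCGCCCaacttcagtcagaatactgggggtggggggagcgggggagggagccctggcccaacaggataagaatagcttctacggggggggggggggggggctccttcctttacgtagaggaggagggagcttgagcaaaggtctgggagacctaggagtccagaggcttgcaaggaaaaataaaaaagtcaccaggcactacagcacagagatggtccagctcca
The GC box was found 3 times in window a, 1 time in window b and 0 times in the Col6a1 window, so the GC box is not shared by all windows of both genes. Of the 34 chains with a listed window, 21 held it in at least 1 window. Of their 37 windows 22 held it, or 59.5%, against 35.7% of all 32851 windows of the same length. The CCAAT box CCAAT stood in 32.4% of chain windows against 37.4% of all, and the TATA box TATAAA in 13.5% against 13.6%. The half-site AAGGTCA, the letters bound by the ERR receptors that PGC-1alpha coactivates, stood in 4 chain windows, or 10.8% against 4.72% of all, and in 0 of the windows above. All letters were searched on both strands.

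Col6a1, Col6a2 and Col18a1 lie near each other on mouse chromosome 10, so the measured genes around them were read in RefSeq order, a choice made after the chains' values were seen. The window from 10 genes before Col6a2 to 10 genes after Col18a1 held 26 measured genes, 23 of them not collagens. Of those 23, 0 passed in water and 0 in phenformin, against 2.0% and 4.01% of all genes. Some of the 23, such as S100b, Itgb2 and Tspear, were above the limit in no array. The differences of the 23 ran from -0.43 to 0.23 in water and from -0.38 to 0.31 in phenformin. The smallest adjusted p among them was 0.326 in water and 0.0628 in phenformin, the latter for Pofut2, a protein O-fucosyltransferase, at -0.38. The 3 measured genes between Col6a1 and Col18a1 were Pcbp3, Gm10787 and Slc19a1. Pcbp3, an RNA-binding protein next to Col6a1, gave -0.34 in water and -0.26 in phenformin, and Slc19a1, the reduced folate carrier, gave 0.21 and 0.15.

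**Figure D2:**
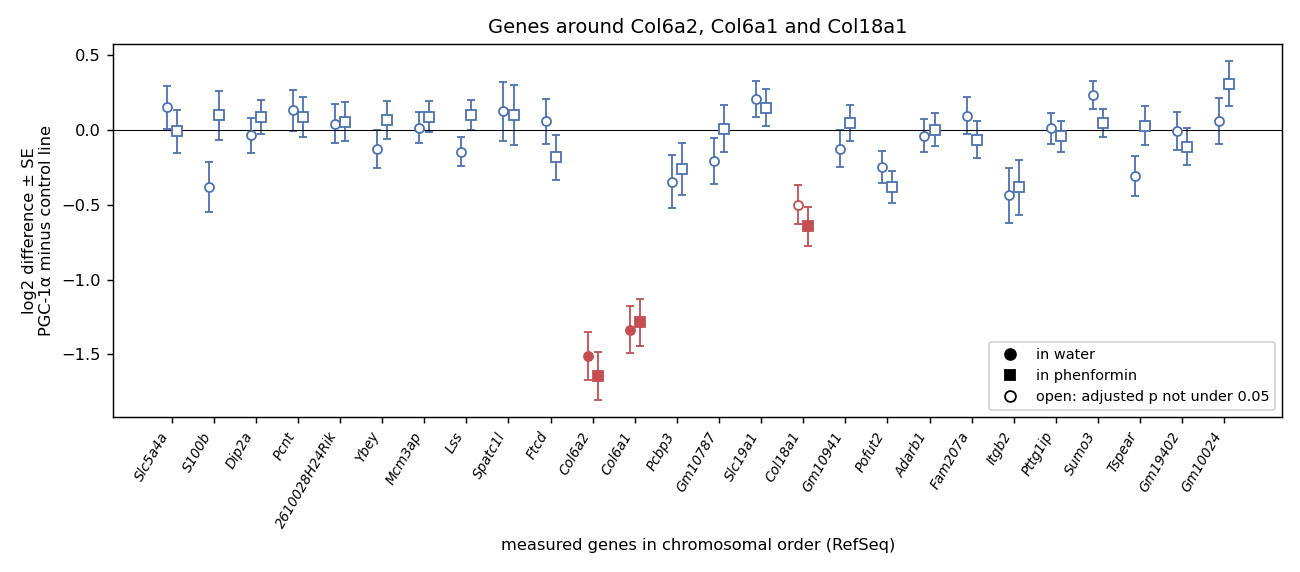
Log2 difference, PGC-1alpha minus control line, with standard errors (vertical axis) for 26 measured genes in their order along mouse chromosome 10, circles for water and squares for phenformin, filled where the adjusted p is under 0.05. Col6a2 and Col6a1 lie between -1.64 and -1.29 and Col18a1 at -0.50 and -0.64, and the 23 other genes lie between -0.43 and 0.31.

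Col18a1, a basement membrane proteoglycan whose terminal fragment is endostatin, was 1.56-fold lower in PGC-1alpha explants in phenformin. Its arrays there stood at 10.63, 10.42 and 10.52 in PGC-1alpha explants and at 11.07, 11.20 and 11.23 in the control line. In water they stood at 10.78, 10.78 and 10.57 and at 10.93, 11.30 and 11.39. All PGC-1alpha arrays were lower than all control-line arrays under both treatments, with control-line water replicate 1 closest to them. The difference was -0.64 ± 0.13 in phenformin (limma adjusted p = 0.012) and -0.50 ± 0.13 in water (adjusted p = 0.0758, not passing). The phenformin call was lost without PGC-1alpha phenformin replicate 2, control-line phenformin replicate 2 or control-line phenformin replicate 3 (adjusted p 0.0642, 0.0613 and 0.0546). The water difference passed over all arrays with the filter on dim probe sets (adjusted p = 0.018) and with an intensity trend (adjusted p = 0.00829), and without control-line water replicate 1, at -0.64 (adjusted p = 0.0179).

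Col4a1 and Col4a2 encode the chains of the ubiquitous type IV network and are transcribed in opposite directions from 1 shared promoter region. The RefSeq starts on GRCm38.p6 overlap by 22 bases, counting both start bases. The stretch chr8:11312777-11312854 is shown on the plus strand, with those bases, from the Col4a2 start to the Col4a1 start, in capitals.
Col4a1 and Col4a2 start: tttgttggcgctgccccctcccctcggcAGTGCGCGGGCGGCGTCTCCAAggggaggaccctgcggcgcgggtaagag
Col4a1 stood at 8.92, 8.93 and 8.83 in control-line explants in water, above its 8.52, 8.46 and 8.49 in phenformin. In PGC-1alpha explants it stood at 8.67, 8.64 and 8.61 in water and at 8.35, 8.51 and 8.48 in phenformin. In each line the water arrays were higher than the phenformin arrays, with no overlap. The differences did not pass: -0.40 ± 0.10 for phenformin in the control line (limma adjusted p = 0.0608) and -0.19 ± 0.10 in PGC-1alpha explants (adjusted p = 0.48). The control-line difference of Col4a1 passed without control-line water replicate 3, at -0.43 (adjusted p = 0.0443), and over all arrays with quantile normalization, the filter on dim probe sets or an intensity trend (adjusted p = 0.0444, 0.00858 and 0.0272). Between lines Col4a1 differed by -0.25 in water, where the arrays did not overlap, and by -0.04 in phenformin, where they did, and neither passed (adjusted p = 0.276 and 0.877).

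Col4a2 stood at 8.45, 8.49 and 8.83 in control-line explants in water and at 8.26, 8.48 and 8.35 in phenformin. In PGC-1alpha explants it stood at 8.48, 8.46 and 8.18 in water and at 8.11, 8.17 and 8.14 in phenformin. Phenformin arrays lay under water arrays in PGC-1alpha explants, and the control-line arrays overlapped. The phenformin differences of Col4a2 were -0.22 ± 0.13 in the control line and -0.23 ± 0.13 in PGC-1alpha explants, and neither passed (limma adjusted p = 0.397 and 0.525). The 4 other type IV chains differed by -0.23 to 0.19 over the line and phenformin comparisons, without a call.

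Col8a2, a chain of the type VIII network known from the basement membrane of the corneal endothelium, did not differ between lines beyond its spread. It stood at 8.66, 8.76 and 8.47 in control-line explants in water and at 8.33, 8.47 and 8.31 in phenformin. PGC-1alpha explants stood at 8.54, 8.76 and 8.45 in water and at 8.46, 8.54 and 8.46 in phenformin. The groups overlapped throughout. The largest of its 4 differences was -0.26 ± 0.12, for phenformin in the control line (limma adjusted p = 0.274).

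Among the 5 chains above the limit in part of the arrays, 0 passed in any comparison. Control-line arrays in water spread most for Col11a2, Col13a1, Col16a1 and Col22a1, and not for Col28a1. Col16a1, a fibril-associated chain, stood at 8.60, 9.08 and 8.02 in control-line explants in water and at 8.15, 7.41 and 8.16 in phenformin, the 7.41 being under the limit. In PGC-1alpha explants it stood at 8.60, 8.38 and 8.57 in water and at 8.67, 8.69 and 8.24 in phenformin. The lines were apart in phenformin only, by 0.63 ± 0.25 (limma adjusted p = 0.211), and overlapped in water.

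Col11a2, a minor chain of cartilage fibrils, stood at 8.45, 8.75 and 7.87 in control-line explants in water and at 8.16, 7.83 and 8.25 in phenformin. PGC-1alpha explants stood at 8.74, 8.39 and 8.45 in water and at 8.49, 8.57 and 8.42 in phenformin. The lines did not overlap in phenformin (0.41 ± 0.19, limma adjusted p = 0.297) and did in water. Col13a1, a transmembrane collagen of cell adhesion sites, stood at 8.47, 8.70 and 7.70 in control-line explants in water and at 8.03, 8.01 and 8.23 in phenformin. Its PGC-1alpha arrays stood at 8.59, 8.36 and 8.08 in water and at 8.54, 8.32 and 8.17 in phenformin. All 4 groups of Col13a1 overlapped with their neighbours.

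Col22a1, a fibril-associated chain of tissue junctions, stood at 8.18, 8.52 and 7.55 in control-line explants in water and at 7.96, 7.86 and 8.06 in phenformin. PGC-1alpha explants stood at 8.32, 8.15 and 8.02 in water and at 8.16, 8.31 and 8.04 in phenformin. The groups overlapped, and control-line water replicates 2 and 3 were its highest and lowest arrays. Col28a1, a chain with von Willebrand factor A domains known from peripheral nerve, stood at 8.17, 8.22 and 8.03 in control-line explants in water and at 7.66, 7.72 and 7.90 in phenformin, all 3 of the latter under the limit. In PGC-1alpha explants it stood at 8.10, 7.87 and 8.05 in water and at 8.07, 8.08 and 7.79 in phenformin. Col28a1 was thus at least 1.17-fold lower in phenformin in the control line, without overlap, and the difference of -0.38 ± 0.12 did not pass (limma adjusted p = 0.127).

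The other 3 chains that passed between lines in phenformin were under the limit in every array, so no fold is given. Col5a1, which helps start type I fibrils and sets their width, stood at 6.19, 6.20 and 6.04 in PGC-1alpha explants and at 7.03, 7.15 and 7.08 in the control line. In water it stood at 6.20, 6.12 and 6.34 and at 6.73, 6.37 and 7.13. The lines were apart under both treatments, and the control line in water spread most. The difference was -0.94 ± 0.15 in phenformin (limma adjusted p = 0.00312), passing in all 12 alternatives run, and -0.52 ± 0.15 in water (adjusted p = 0.132). The water difference passed without control-line water replicate 2, at -0.71 (adjusted p = 0.0174), and over all arrays with the negative control median as a covariate, at -0.67 (adjusted p = 0.0191).

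Col6a3, the main alpha3 chain of type VI collagen, ran opposite to Col6a1 and Col6a2 in phenformin. It stood at 6.90, 6.70 and 6.68 in PGC-1alpha explants and at 6.26, 6.11 and 6.34 in the control line. In water it stood at 6.71, 6.57 and 6.61 and at 6.77, 6.64 and 6.54. The lines were apart in phenformin and overlapped in water, with every array under the limit. The difference was 0.52 ± 0.11 in phenformin (limma adjusted p = 0.0161) and -0.02 ± 0.11 in water. The call was lost without PGC-1alpha phenformin replicate 1 or control-line phenformin replicate 2 (adjusted p = 0.096 and 0.101).

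Col9a1, a chain on the surface of cartilage fibrils, stood at 7.10, 7.20 and 7.12 in PGC-1alpha explants in phenformin and at 6.63, 6.49 and 6.64 in the control line. In water it stood at 6.98, 7.17 and 6.67 and at 7.16, 7.18 and 6.78. The control-line phenformin arrays were lower than all other arrays. The difference between lines in phenformin was 0.55 ± 0.14 (limma adjusted p = 0.0434), and it did not pass once any single array of either phenformin group was left out (adjusted p 0.0912 to 0.183).

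By class, the 11 fibrillar chains differed between lines by -0.52 to 0.26 in water and by -0.94 to 0.41 in phenformin, with Col5a1 the lowest in both. The 8 fibril-associated chains differed by -0.23 to 0.13 in water and by 0.02 to 0.63 in phenformin. The 4 transmembrane chains differed by -0.04 to 0.09 in water and by 0.20 to 0.27 in phenformin. Both of the latter classes were thus on the higher side in PGC-1alpha explants in phenformin throughout, with Col9a1 their single call. Among all genes above the limit in no array, 43.0% were negative in that comparison, with a median of 0.04. Genes above it in all 12 arrays had 64.1% negative and a median of -0.07. The 3 short-chain network chains differed by -0.05 to 0.18 and by -0.24 to 0.12, and the chains outside these classes, Col26a1 and Col28a1, by -0.13 to 0.19 and by -0.01 to 0.22. The type VI chains Col6a4, Col6a5 and Col6a6 differed by -0.05 to 0.03 in water and by 0.13 to 0.49 in phenformin. Col15a1, a multiplexin, differed by 0.04 and 0.11, and none of these was called.

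**Figure D3:**
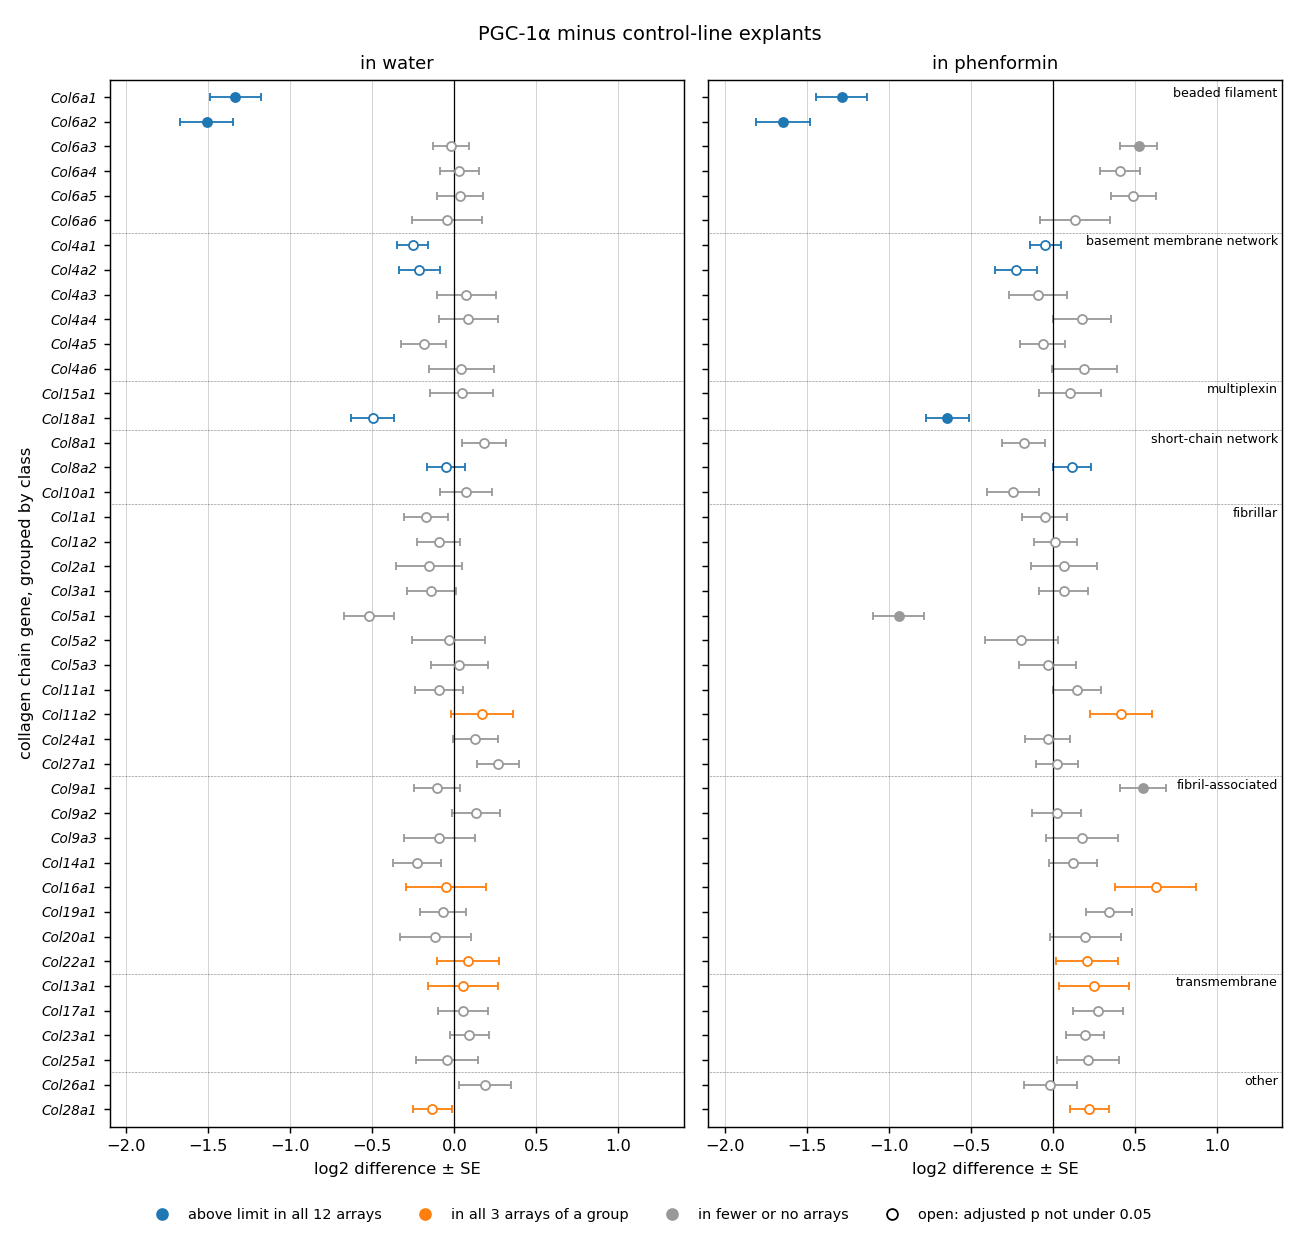
Log2 difference, PGC-1alpha minus control line, with standard errors (horizontal axes) for the 42 chains by class, in water on the left and in phenformin on the right, with blue for chains above the limit in all 12 arrays, orange for all 3 arrays of a group and grey for fewer or none, filled where the adjusted p is under 0.05. Col6a1 and Col6a2 lie between -1.64 and -1.29 in both panels, and the remaining chains lie between -0.94 and 0.63.

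The second question was how 100 uM phenformin moved the chains within each line. In control-line explants 0 of 42 chains passed, against 1.20% of all genes (limma), and 13 chains had an unadjusted p under 0.05, 12 of them lower in phenformin and 1, Col5a1, higher, beside 3269 of 19505 genes, 1447 of them lower. In PGC-1alpha explants 0 chains passed, against 0.195% of all genes, and 4 had an unadjusted p under 0.05, all lower: Col6a2, Col8a1, Col26a1 and Col27a1. Over all genes 2219 of 19505 did so there. For the difference between the responses of both lines 0 chains passed, against 0% of all genes. There, 4 chains and 1018 genes had an unadjusted p under 0.05. Those 4 were Col6a3, Col6a4, Col6a5 and Col9a1, all under the limit in every array, with adjusted p = 0.928 for each. Both phenformin comparisons share their arrays with the comparisons of lines above.

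The chains short of the threshold with an adjusted p under 0.1 were Col6a4, Col4a1 and Col6a3 in the control line and Col27a1 and Col8a1 in PGC-1alpha explants. In the control line Col6a4, an alpha3-like chain, differed by -0.52 ± 0.12 (limma adjusted p = 0.0566), Col4a1 by -0.40 as given above and Col6a3 by -0.41 ± 0.11 (adjusted p = 0.0917). In PGC-1alpha explants Col27a1, a fibrillar chain of cartilage, stood at 8.08, 7.95 and 7.72 in water, the first 2 above the limit, and at 7.27, 7.45 and 7.22 in phenformin. Its water and phenformin arrays did not overlap, and the difference of -0.61 ± 0.13 did not pass (adjusted p = 0.0812). It passed without PGC-1alpha water replicate 3, at -0.70 (adjusted p = 0.047), and over all arrays with an intensity trend (adjusted p = 0.0281). Col8a1, the partner of Col8a2 in type VIII collagen, differed by -0.60 ± 0.13 in PGC-1alpha explants (adjusted p = 0.0963), under the limit in every array. Of the transmembrane chains the smallest adjusted p was that of Col25a1, a collagen of neurons, at -0.60 ± 0.19 in the control line (adjusted p = 0.133).

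Without single calls, most chains lay on the lower side in phenformin in the control line. The difference was negative for 38 of 42 chains, with a median of -0.22, against 51.0% of all genes and a median of -0.01. Among genes above the limit in no array 63.6% were negative, with a median of -0.07, while genes above it in all 12 arrays had a median of 0.08. All 6 type VI chains, all 6 type IV chains, all 4 transmembrane chains, 7 of 8 fibril-associated chains and 9 of 11 fibrillar chains were negative. The type VI chains ran from -0.52 to -0.20, the type IV chains from -0.40 to -0.07, the transmembrane chains from -0.60 to -0.20, the fibril-associated chains from -0.66 to 0.01 and the fibrillar chains from -0.37 to 0.34. In PGC-1alpha explants 28 of 42 were negative, with a median of -0.07 against -0.02 over all genes. That median lay at -0.01 without PGC-1alpha phenformin replicate 3 and at -0.14 without its replicate 2, with 24 and 30 of 42 negative, and at -0.02 and -0.11 without PGC-1alpha water replicates 1 and 2. With the negative control median as a covariate it was 0.06, with 17 of 42 negative. That covariate was higher in every phenformin array than in every water array, so it also takes up the phenformin difference.

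Single arrays weighed on that tally. Control-line water replicate 2 was the highest of the 12 arrays for 21 of 42 chains, and control-line phenformin replicate 2 the lowest for 15. Without the former the control-line median over the chains was -0.10, with 29 of 42 negative, and without the latter it was -0.14, with 34 negative. Without control-line water replicate 3 it was -0.33, with 39 negative. The mean value of the epithelial, fibroblast and mural, leukocyte and lung epithelial marker lists was also highest in control-line water replicate 2. The median of the negative controls was lowest in that array, at 4.69, and lay between 5.09 and 5.20 in phenformin against 4.69 and 5.02 in water. With that median as a covariate the control-line median over the chains was -0.03, with 22 of 42 negative. Because this covariate separates all phenformin arrays from all water arrays, that setting cannot tell background apart from phenformin. The part of the marker lists in the tally was not tested.

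**Figure D4:**
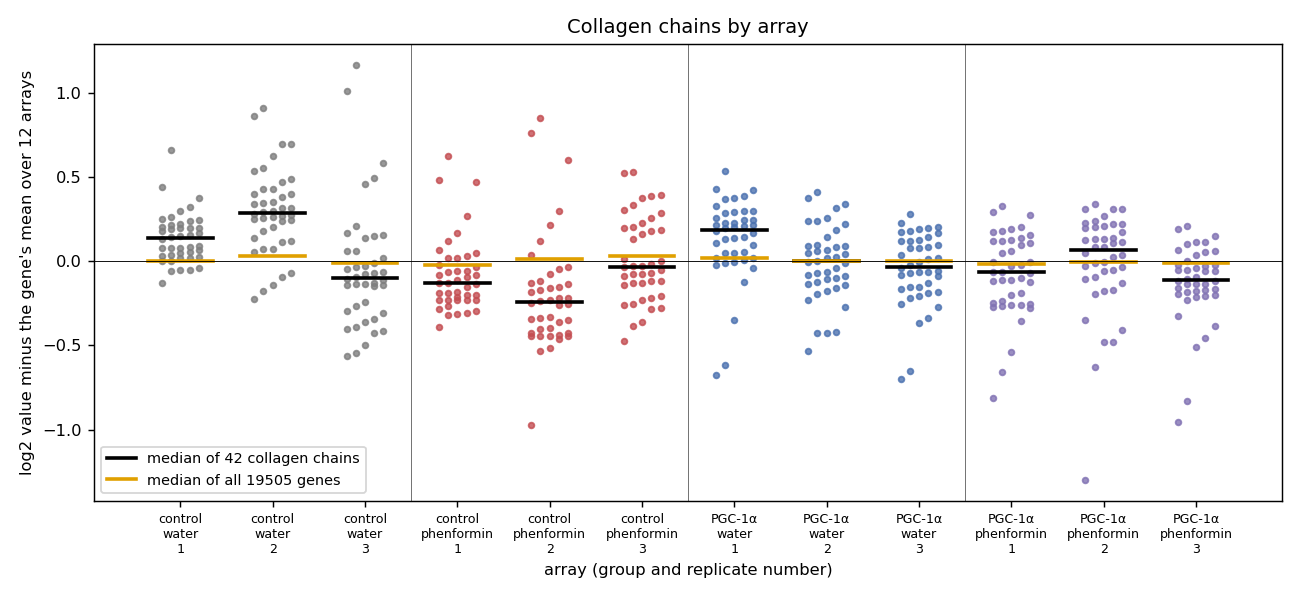
Log2 value minus the gene's mean over the 12 arrays (vertical axis) for each of the 42 chains (points) in each array (horizontal axis), with black bars for the median over the chains and orange bars for the median over all 19505 genes. The chain median is highest in control-line water replicate 2, at 0.29, and lowest in control-line phenformin replicate 2, at -0.24, while that of all genes stays between -0.02 and 0.03.

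**Figure D5:**
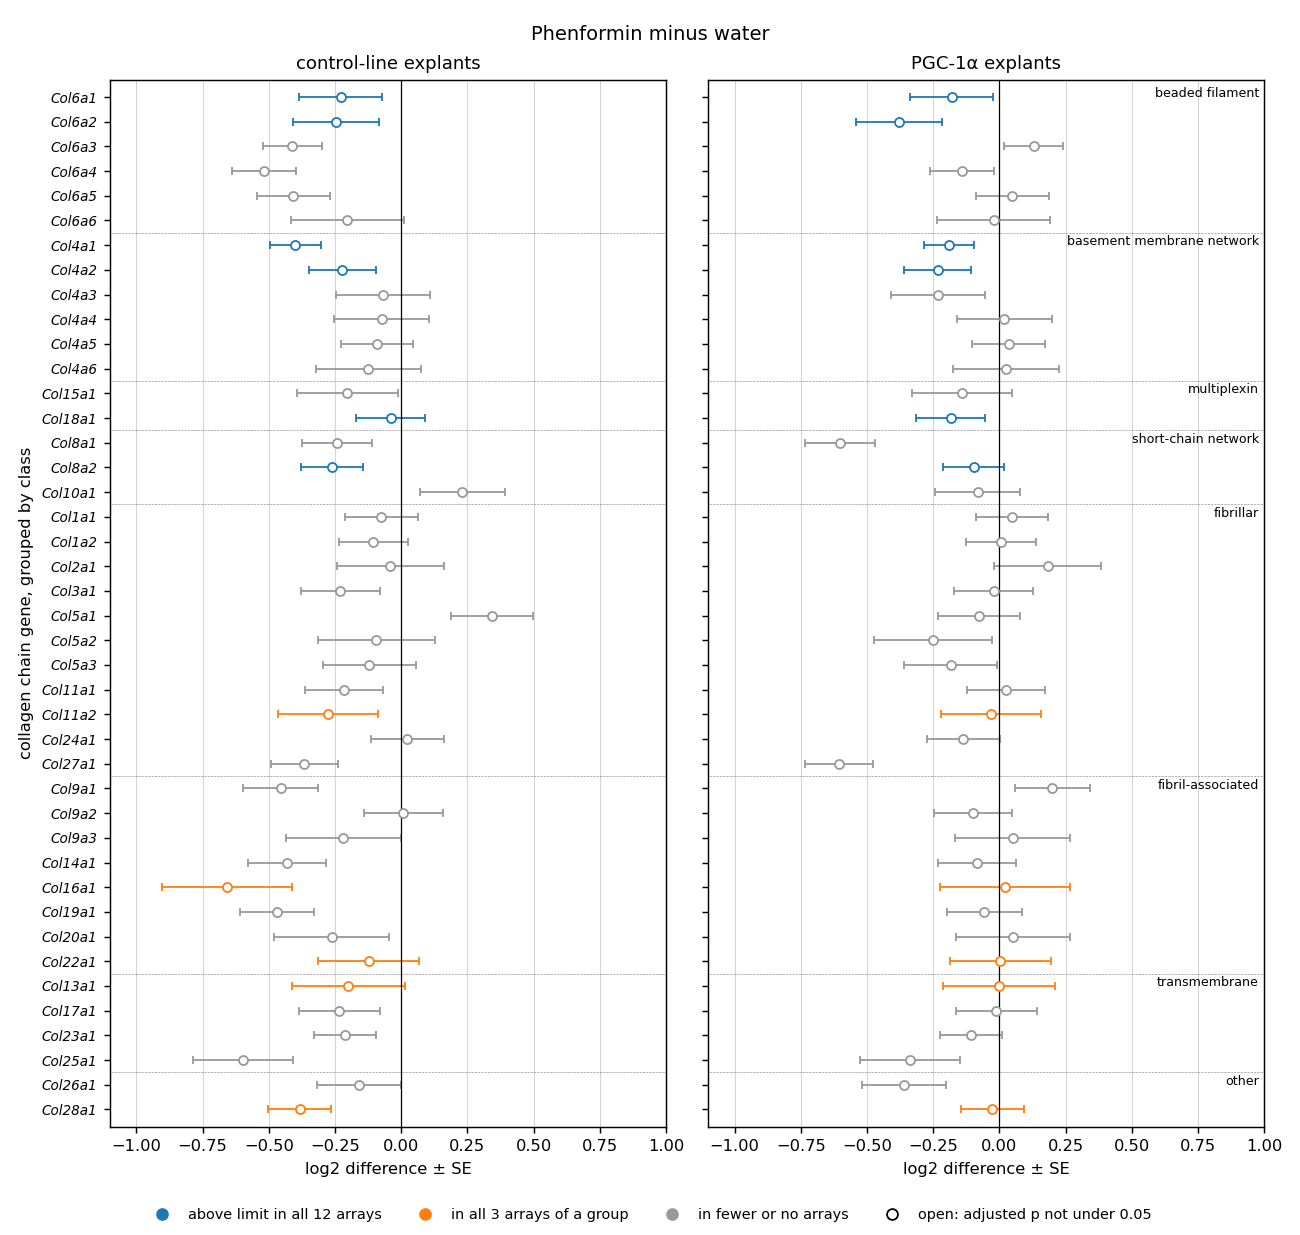
Log2 difference, phenformin minus water, with standard errors (horizontal axes) for the 42 chains by class, in control-line explants on the left and PGC-1alpha explants on the right, with colours as for the comparison of lines. All symbols are open because no adjusted p is under 0.05, and 38 of 42 chains lie left of 0 in the control line and 28 in PGC-1alpha explants.

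Of 28 measured genes that fold, modify and mature collagen, 1 passed in water, lower in PGC-1alpha explants, and 8 in phenformin, all lower. Their medians were -0.20 in water and -0.32 in phenformin. Over all genes 1.37% passed as lower and 0.636% as higher in water, and 3.16% and 0.856% in phenformin. Of the 6122 genes above the limit in all 12 arrays, 335 passed as lower and 37 as higher in phenformin. Loxl3, a lysyl oxidase that starts collagen cross-links, was at least 1.81-fold lower in water and at least 3.40-fold lower in phenformin (limma adjusted p = 1.97e-05 and 8.47e-07). In phenformin Plod1, a lysyl hydroxylase, was 1.52-fold lower, P3h4, a member of its complex, 1.59-fold lower, and the lysyl oxidase Loxl4 1.46-fold lower. Phenformin in the control line moved 3 of the 28: Loxl3 (1.03 ± 0.16) and Pcolce, the enhancer of procollagen cleavage (0.54 ± 0.12), rose, and the prolyl hydroxylase subunit P4ha3 fell (-0.77 ± 0.15) under the limit. In PGC-1alpha explants 0 of 28 passed (limma), with 8 at an unadjusted p under 0.05, beside 2219 of 19505 genes. Over all genes 1.20% passed for phenformin in the control line and 0.195% in PGC-1alpha explants.

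Of 19 basement membrane partners, 2 were lower in PGC-1alpha explants in water and 3 in phenformin, and 0 were higher. These were Sparc, a collagen-binding glycoprotein (-0.58 ± 0.10 in water and -0.75 ± 0.10 in phenformin), the laminin chain Lamb3 (-0.62 ± 0.14 and -0.76 ± 0.14) and, in phenformin, the proteoglycan Hspg2, perlecan (-0.64 ± 0.12). Their list medians were -0.07 and -0.12, and over all genes 1.37% passed as lower in water and 3.16% in phenformin. Of 21 fibril-associated matrix genes, 1 was lower in water and 3 in phenformin. Thbs1, thrombospondin, differed by -1.14 ± 0.12 in water and -1.57 ± 0.12 in phenformin, and fibronectin, Fn1, by -0.82 ± 0.15 and Fbln2, fibulin, by -0.41 ± 0.11 in phenformin. Fn1 also fell in phenformin in PGC-1alpha explants (-1.06 ± 0.15, limma adjusted p = 0.0149), the 1 call of that list between phenformin and water. Of all genes, 0.195% passed for phenformin in PGC-1alpha explants and 1.20% in the control line.

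Of 16 collagen-degrading proteases and inhibitors, 2 were lower in PGC-1alpha explants in water and 3 in phenformin, against 1.37% and 3.16% of all genes. The inhibitor Timp1 was 1.41-fold lower in water and 1.77-fold lower in phenformin, Timp2 was 1.33-fold lower in phenformin, and the protease Mmp3 was lower under the limit (-0.78 ± 0.15 and -0.80 ± 0.15). The collagenase Mmp13 rose in phenformin in the control line (0.70 ± 0.13, limma adjusted p = 0.0197). It was the 1 call of its list there, where 1.20% of all genes passed. Of 8 collagen receptors measured, 0 passed in any comparison (limma), against 0% to 4.01% of all genes. Per comparison, 0 to 3 of the receptors had an unadjusted p under 0.05. The 3 were for phenformin in PGC-1alpha explants, beside 2219 of 19505 genes. Of 21 regulators of collagen genes, Ccn2, a matricellular growth factor, was 2.09-fold higher in water and 1.84-fold higher in phenformin. In the other direction 1 regulator was lower in water, the chondrocyte factor Sox9 (-0.47 ± 0.11), and 5 in phenformin, among them the TGF-beta receptor Tgfbr2 (-0.78 ± 0.10), Snai1 (at least 1.68-fold) and Snai2 (1.56-fold). Among all genes, 0.636% passed as higher and 1.37% as lower in water, and 0.856% and 3.16% in phenformin.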

How the data were processed

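The authors deposited 1 value table with 28815 probe sets for the 12 arrays, whose names mark it as an Affymetrix Clariom S mouse array. Its values, from 1.50 to 13.65, were read as log2 from that range, so the base is an inference. How the authors summarised and normalized these deposited log2 values is not given in the sources used here. RNA and labelling kits are named per the labels' protocols. The other deposited table, whose 12 value columns match no sample label, was left out. Symbols came from the platform annotation and all 19572 named probe sets matched RefSeq of GRCm38.p6. The highest-mean probe set was kept for 55 genes with several, which left 19505.

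The model, fitted gene by gene with limma 3.58.1 (R 4.3.3), held 4 group means, without a replicate block, with 8 residual and 5.84 prior degrees of freedom. The threshold was a two-sided p of 0.05 after Benjamini-Hochberg adjustment, made over all genes within each of 5 contrasts. Groups came from the sample titles, and the number of arrays limits the precision. The limit of detection was the 95th percentile of each array's negative controls, and "at least" folds set the dim group at the higher of that limit and its own value. The fit was also run on simulated data with independent noise in each gene and array, which held no shift common to a whole array. Chains past the threshold or above the limit in all 3 arrays of a group are given array by array, other chains by class range and count, naming the smallest adjusted p of a class; Col27a1, also given by array, was added after its values were seen, and of the related lists at most the 4 smallest adjusted p per list and comparison. Alternatives were quantile normalization, a filter on dim probe sets, an intensity trend, a replicate block, only the groups compared, the mean over probe sets, the negative control median as a covariate and leaving out each array. The chains, lists and tests were chosen with earlier results of these data known.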

Additional observations from a re-analysis of the deposited data

How the results depend on the processing

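Recomputed were the chain differences called, and Col18a1 and Col5a1 between lines in water, Col4a1 and Col6a4 for phenformin in the control line and Col27a1 and Col8a1 for phenformin in PGC-1alpha explants. Of these, 0 reversed, and Col6a1 and Col6a2 passed between lines in all 13 run for each treatment. The mean over probe sets is among those run and leaves the values of every chain as they were. For the lines in water, 391 genes passed, against 625 with an intensity trend, 140 with only the groups compared and 247 to 330 without single arrays; the chains called stayed between 2 and 3. For the lines in phenformin, 783 genes and 6 chains passed, against 346 to 584 genes and 3 to 6 chains without single arrays, and 3 chains with the filter on dim probe sets, which keeps only 11 chains. Without control-line phenformin replicate 2 the 3 were Col5a1, Col6a1 and Col6a2. For phenformin in the control line, 234 genes passed, against 617 with the filter, 691 with the trend, 100 with a replicate block, 13 with only the groups compared, 1 with the negative control covariate and 21 to 601 without single arrays. The chains called there rose from 0 to 1 with quantile normalization (Col4a1), 2 with the filter (Col4a1 and Col28a1), 1 with the trend (Col4a1) and 0 to 5 without single arrays, the 5 without control-line water replicate 3. Of the genes called there 76.5% were higher, and 66.1% after quantile normalization. For phenformin in PGC-1alpha explants, 38 genes passed, against 61 with quantile normalization, 250 with the filter, 255 with the trend, 10 with a replicate block, 15 with only the groups compared, 12 with the covariate (25.0% of them higher, against 68.4%) and 3 to 77 without single arrays. The chains called there were 1 with the trend (Col27a1) and 0 to 1 without single arrays. For the difference of responses, 0 genes passed (limma, 1018 at an unadjusted p under 0.05), against 1 with the filter, 3 with the trend and 0 to 1 without single arrays, and 0 chains under each alternative run. Some settings use fewer genes or arrays, and the cause of these changes was not tested. The negative control median separates phenformin from water arrays, so as a covariate it also takes up the phenformin difference.

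Arrays with the same replicate number mostly did not deviate together: 1 of 18 such pairs had deviations correlated over 0.1, with a range from -0.37 to 0.13. Whether arrays were paired by animal, culture or batch cannot be read from these correlations. With the replicate number as a block, 2 chains passed between lines in water, 5 in phenformin, where Col9a1 was lost (adjusted p = 0.0544), and 0 in the other comparisons. Signal over background limits what the 25 chains under the limit in every array can show.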
